A study of Mus musculus with 75 samples.

Results

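The iron handling genes described here are 10 genes that carry, store, move, oxidise or regulate iron. They were picked by name: transferrin (Trf), both ferritin chains (Fth1 and Ftl1), ferroportin (Slc40a1), the importer DMT1 (Slc11a2), ceruloplasmin (Cp), hephaestin (Heph), heme oxygenase 1 (Hmox1), hepcidin (Hamp) and the reductase Steap3. All 10 had a row among 20652 genes measured in tissues, and 9 had a row among 16940 genes measured in parabionts, where Hamp was not analysed. For a gene with several transcripts, the transcript with the highest mean was used.

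The study asked how ageing changes the choroid plexus, the epithelium that makes cerebrospinal fluid, beside other organs. Aged C57BL/6 mice of 22 months were compared with young C57BL/6 mice of 3 months in 11 tissues, with 3 mice of each age. The titles of the tissue libraries label these mice WT, for wild type. All mice had been perfused with PBS and were otherwise untreated, and RNA was purified with the miRNeasy kit. In the second experiment, choroid plexus was taken from C57BL/6 parabionts, mice joined surgically so that they share a circulation, also after PBS perfusion, and RNA was purified with an RNA MicroPrep kit. Old heterochronic parabionts (22 months, joined to a young mouse; n = 2), old isochronic parabionts (22 months, joined to an old mouse; n = 3), young heterochronic parabionts (3 months; n = 3) and young isochronic parabionts (3 months; n = 3) were compared. Of 75 listed libraries, 74 were analysed. Groups held 3 mice except 2 aged livers and 2 young libraries each of bone marrow and cervical lymph nodes.

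Iron enters most cells bound to transferrin, is stored in ferritin shells built of heavy and light chains, and leaves through ferroportin, the only known iron exporter of mammals. Hepcidin, a liver hormone, makes cells degrade ferroportin, while ceruloplasmin and hephaestin oxidise exported iron so that transferrin can take it up. In the brain, transferrin is made mainly by the choroid plexus epithelium and by oligodendrocytes.

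Several of these messages carry an iron-responsive element, a hairpin bound by iron regulatory proteins. Bound in the 5′ UTR it blocks translation, and bound in the 3′ UTR it protects the message from decay. The hairpins are shown because they mark the members whose output iron is known to regulate after transcription. Message levels do not measure the part that acts on translation. A search of the sense strand of GENCODE UTRs (GRCm38) for the loop CAGTGN, with N any base but G, an unpaired C and a paired stem of 5 bases found them in the 5′ UTR of both ferritin chains and of Slc40a1, and with 1 unpaired stem base in the 3′ UTR of a Slc11a2 isoform. Capitals mark the loop.
Fth1, 5′ UTR, chr19:9982733-9982757, plus strand: tcctgcttcaaCAGTGCttgaacgg
Ftl1, 5′ UTR, chr7:45459782-45459806, minus strand: tcttgcttcaaCAGTGTttgaacgg
Slc40a1, 5′ UTR, chr1:45925468-45925492, minus strand: aacttcagctaCAGTGTtagctaag
Slc11a2 (NM_001146161), 3′ UTR, chr15:100395156-100395180, minus strand: gccatcagagcCAGTGTgtttctat

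The paired hairpin occurred in the 5′ UTR of 16 of 19198 genes (0.0833%). With 1 unpaired base allowed, it occurred in the 3′ UTR of 222 of 20503 genes (1.08%). The ferritin hairpins share the 5 stem bases on each side of the loop, while that of Slc40a1 has other stem letters. No such match was found in the UTRs of the other 6 members (Trf, Cp, Hmox1, Heph, Hamp and Steap3) in the transcripts searched.

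Values are normalised reads per transcript. A value of 1 is close to 1 read: 1 read was worth 0.527 to 2.19 in tissues and 0.783 to 1.48 in parabionts. Summed over the transcript used per gene, depth ran from 187919 to 1134228 reads per tissue library and from 534529 to 991784 per parabiont library. Several libraries of young mouse 2 held markers of a second organ. Its lung had a summed hepatocyte marker level of 62449.5, against 46.7 to 69.1 in aged lungs and 40.2 and 35.0 in the other young lungs. Its spleen had a summed lung epithelium level of 36466, against 46.5 to 88.7 in aged spleens, and its hippocampus a summed B cell level of 860.2, against 1.85 to 5.76 in aged hippocampi. Age comparisons are therefore also given without young mouse 2 for the members described, and tissue medians leave it out. In bulk tissue, more cells of a type and more RNA per cell cannot be told apart.

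Across tissues, Trf, Cp and Hamp had their highest medians in liver, Slc40a1 and Hmox1 in spleen, and Heph in colon. The carrier Trf had its highest median in liver, 20497 (18118 to 23885 over 4 libraries), and its second in choroid plexus, 366.6 (242 to 587 over 5 libraries). Liver did not overlap with choroid plexus or any lower tissue once young mouse 2 was left out, whereas choroid plexus overlapped with lung, the next in order (median 254). Colon was lowest (median 33.9), and its range lay below that of bone marrow, the next above it.

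Hamp and Cp shared the liver peak. Hamp, the hormone that limits iron export, had a median of 5062 in liver, and the next tissue, mesenteric lymph nodes, had 7.32. Cp, the plasma ferroxidase, had medians of 1433 in liver and 145 in lung, with no overlap between these tissues or between lung and the next, mesenteric lymph nodes (69.2). In choroid plexus, Cp was at 23.6, seventh in order, overlapping with thymus below it and not with spleen above it.

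Slc40a1, the exporter, was highest in spleen (median 150.4), liver (102), bone marrow (62.8) and colon (45.9), and neighbours in that order overlapped. Colon did not overlap with the next tissue, inguinal lymph nodes (10.6). Choroid plexus was last: 1.28, 0 and 1.12 in aged mice and 0.998, 0 and 0 in young mice, which is at most 1 read per library. A change with age was not detectable at this depth.

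Hmox1, which opens the heme ring and frees its iron, peaked in spleen (median 235, lowest library 195), apart from bone marrow (median 69.6, highest 109). Heph, the ferroxidase of the gut, peaked in colon (42.6, lowest 35.6), with choroid plexus second (8.55, highest 14.97), and these did not overlap. Slc11a2, which imports ferrous iron, had its highest median in choroid plexus (22.6), but its range overlapped with that of colon (19.1), and Steap3, which reduces ferric iron in endosomes, was highest in bone marrow (21.0), overlapping with liver (18.1). Unless stated otherwise, levels and changes of Slc11a2 are those of its isoform without the hairpin shown above.

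**Figure D1:**
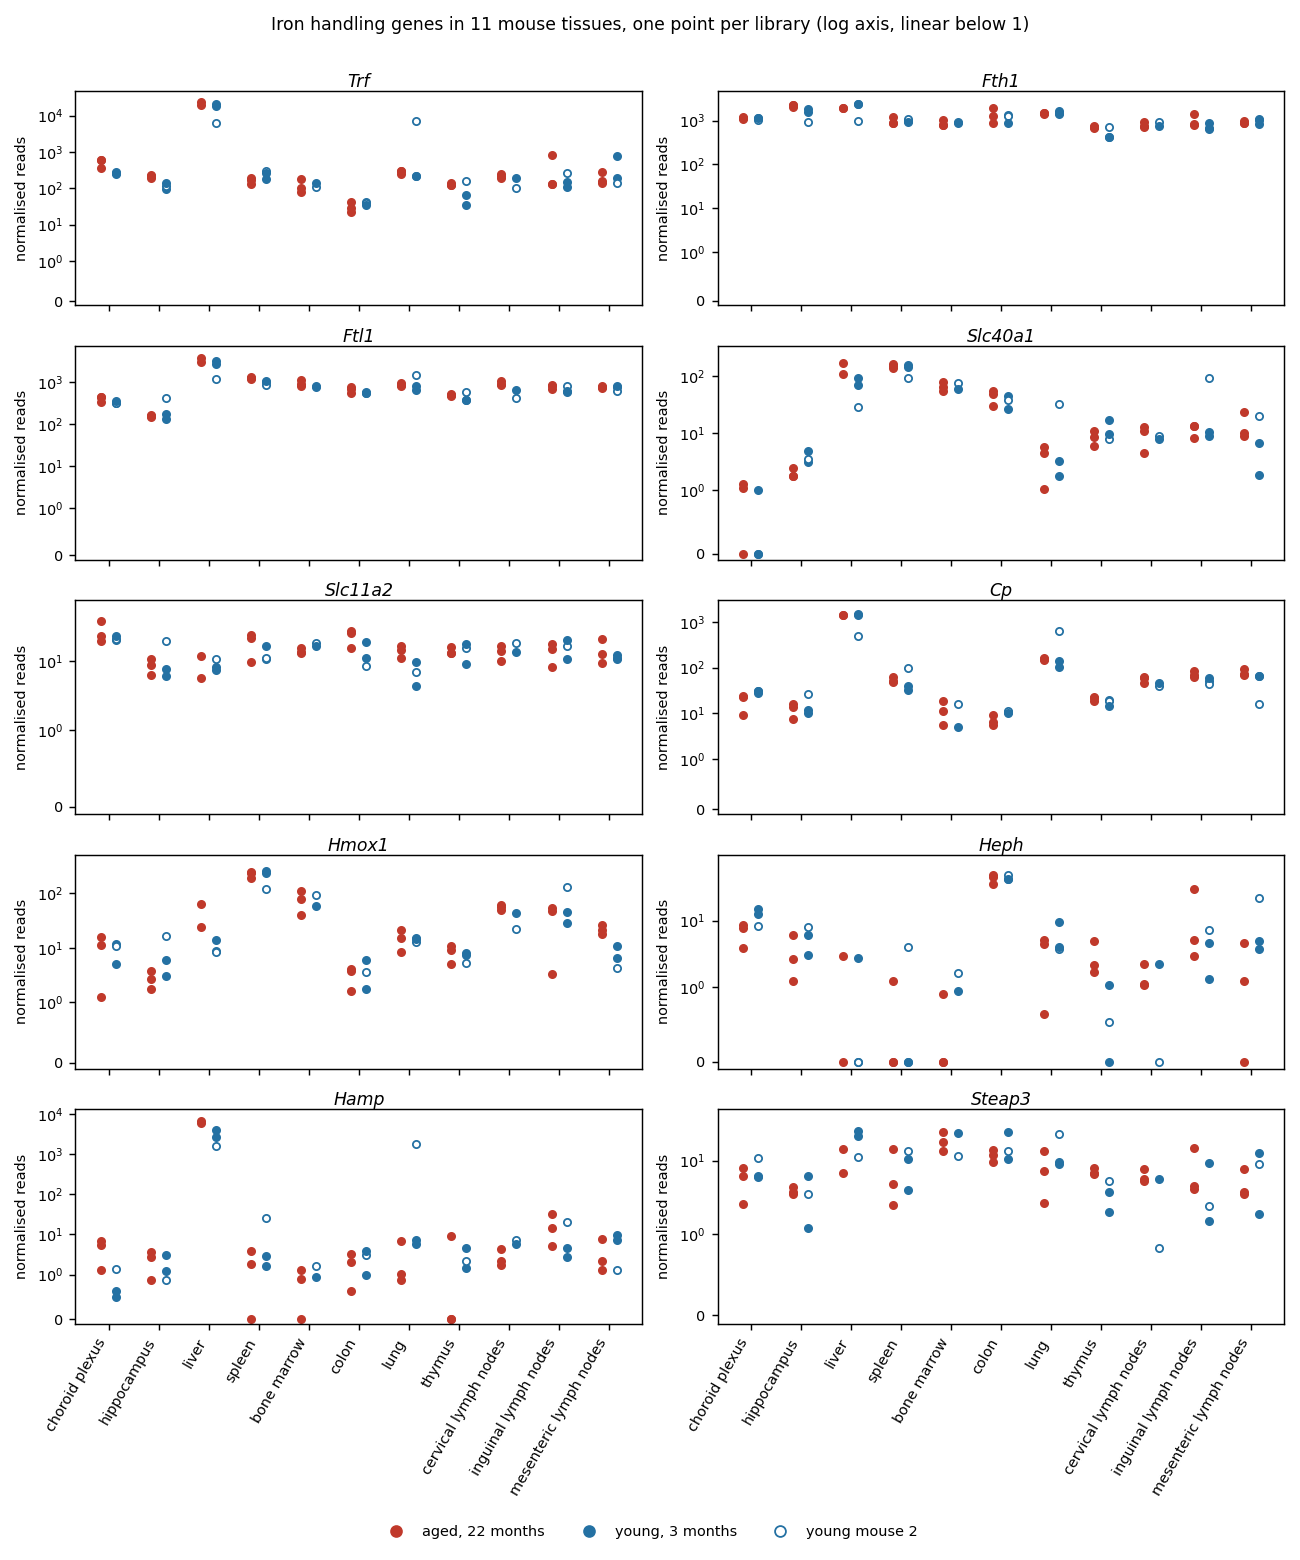
Normalised reads of each iron handling gene (log axis, linear below 1) in 11 tissues, one point per library, aged left of young, with young mouse 2 as open points. Trf, Cp and Hamp stand highest in liver, Hmox1 and Slc40a1 in spleen, Heph in colon, and Slc40a1 lies at or near 0 in choroid plexus.

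Per kilobase of transcript, the order of the members within choroid plexus was led by ferritin and transferrin. Fth1 had a median of 1221 reads per kb, Ftl1 358 and Trf 143 over 5 libraries. All other members lay under 10 per kb, from Slc11a2 at 7.47, Hmox1 at 7.13 and Cp at 5.86 to Hamp at 3.12, Heph at 1.86, Steap3 at 1.18 and Slc40a1 at 0.296. The last 4 rest on few reads. A shorter Steap3 transcript, NM_133186, had identical values and would give 2.22 per kb, so the order of Heph and Steap3 depends on the transcript chosen.

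Against the mean of the other 10 tissues, 6 of 10 members differed in choroid plexus, 2 higher and 4 lower, by limma with Benjamini-Hochberg adjustment. Of all 20151 genes tested, 51% passed in this contrast (26.1% higher, 24.9% lower), so a count of 6 is close to that background. Higher were Heph (log2 2.57, SE 0.901, adjusted p = 0.0151; 1.35 with a pseudocount of 1 read) and Slc11a2 (0.91, SE 0.206, adjusted p = 0.000232). Lower were Ftl1 (log2 -1.003, SE 0.141, adjusted p = 6.09e-08), Cp (-1.01, SE 0.265, adjusted p = 0.00129), Hmox1 (-1.39, SE 0.389, adjusted p = 0.00252) and Slc40a1. The log2 difference of Slc40a1 was -6.39 with the pseudocount used and -3.81 with a pseudocount of 1 read, so its size depends on that setting with an adjusted p of 5.3e-14 and 7.26e-14. Trf (log2 0.60, adjusted p = 0.201), Fth1 (0.06), Hamp (-1.60) and Steap3 (-0.19) did not pass. Without aged mouse 1 Hmox1 no longer passed (log2 -0.76, adjusted p = 0.113), and without young mouse 1 neither did Heph (2.24, adjusted p = 0.0754).

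The ferritin chains differed in proportion between tissues. The heavy chain oxidises iron and the light chain helps to build the mineral core. Per kb, and without young mouse 2, the ratio of Fth1 to Ftl1 had a median of 13.9 in hippocampus (11.5 to 15.7 over 5 libraries) and 3.41 in choroid plexus (2.72 to 3.72). It had a median of 0.740 in liver (0.560 to 0.925 over 4 libraries) and 0.929 in spleen (0.749 to 1.02). The range of hippocampus lay above that of each other tissue, and the range of choroid plexus above those of the tissues below it, of which colon reached 2.701. Of the pair, Ftl1 varied more: its medians ran from 152 in hippocampus through 346.6 in choroid plexus to 3010.0 in liver, and those of Fth1 from 662 in thymus to 2154 in liver. In the hippocampus of young mouse 2, the library with B cell markers, the ratio was 2.28.

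**Figure D2:**
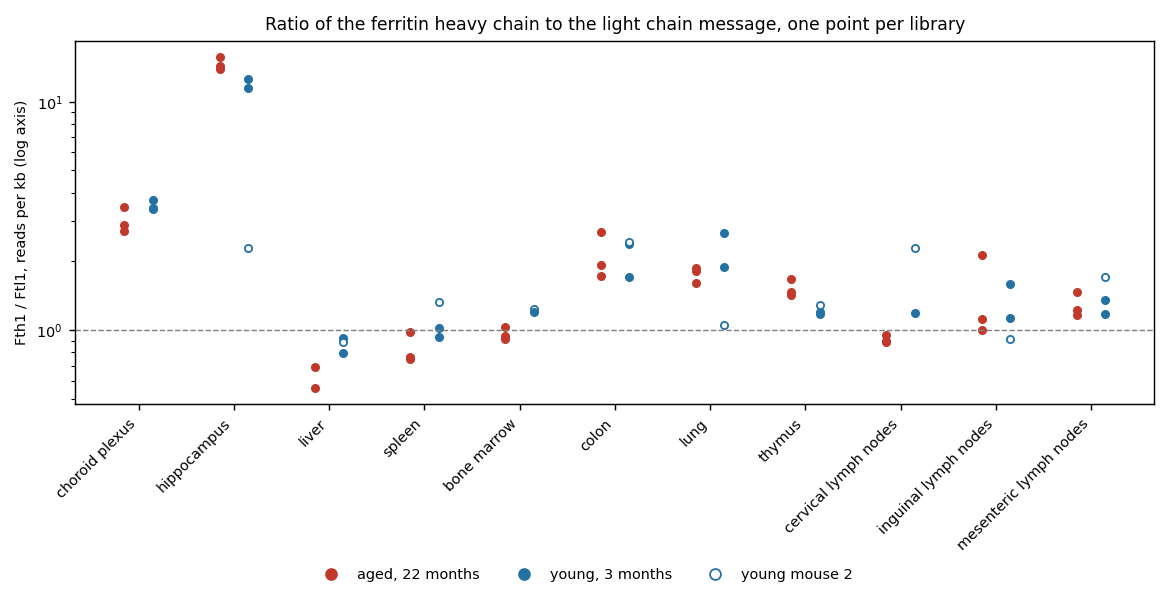
Ratio of Fth1 to Ftl1, each in reads per kb of transcript (log axis), in 11 tissues, one point per library, aged left of young; the dashed line marks a ratio of 1. Hippocampus lies between 11.5 and 15.7 except the open point of young mouse 2 at 2.28, and liver lies under 1.

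The Slc11a2 isoform with the 3′ hairpin was the minor form in choroid plexus. As a share of both isoforms per length, NM_001146161 made up 26.8%, 12.6% and 10.8% in aged mice and 36.8%, 24.2% and 16.0% in young mice. The groups overlapped. Its median share was highest in liver, 59.0% (45.1% to 71.5% over 4 libraries), and lowest in inguinal lymph nodes, 5.40% (0% to 12.1% over 5 libraries). These shares rest on few reads, and reads from exons common to both isoforms were divided between them before deposit by a method not given in the sources used here.

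With age, Trf rose in the choroid plexus, the only member to do so. Trf had 584, 367 and 587 normalised reads in aged mice, against 242, 289 and 262 in young mice, a mean of 513 ± 126 in aged mice and 264 ± 23.5 in young mice (SD, n = 3 each). All aged libraries lay above all young ones, and aged mouse 2 was the lowest of the aged. The log2 change was 0.93 (SE 0.164, adjusted p = 0.0095, limma). It was 1 of 10 members tested, and 0.176% of 14221 genes passed. Without young mouse 2 it was 0.99 (adjusted p = 0.0332), where 0.0902% of genes passed. Without aged mouse 1, aged mouse 3 or young mouse 1 the adjusted p was 0.175, 0.151 and 0.0954, with log2 changes of 0.82, 0.81 and 0.86. Without the mean-variance trend the adjusted p was 0.91, and with transcripts summed per gene it was 0.0887. Over all 12 alternatives it ran from 1.03e-07 to 0.91.

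Markers of other cells that make transferrin were summed in these libraries, and their part in the change of Trf was not tested. The 9 oligodendrocyte markers summed to 37.1 to 62.7 in aged choroid plexus and 27.0 to 61.0 in young choroid plexus, with Opalin at 0 in all aged libraries and Ermn and Mog at 0 in all young ones. The 8 hepatocyte markers summed to 47.4 to 86.4 in aged mice and 54.0 to 87.8 in young mice. The 10 macrophage markers summed to 453, 133 and 169 in aged mice and 123, 134 and 137 in young mice, so aged mouse 1 was high, and the part of this in the change of Trf was not tested. The 10 choroid plexus epithelium markers summed to 231521 to 273698 in aged mice and 245939 to 295952 in young mice.

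Among the oxidases, Cp had lower values in all aged choroid plexus libraries, and neither Cp nor Heph passed. Cp had 22.2, 9.30 and 23.6 in aged mice, against 28.5, 30.6 and 30.1 in young mice. The groups did not overlap, with aged mouse 2 lowest, but the change did not pass (log2 -0.81, SE 0.345, adjusted p = 0.838, limma). Without aged mouse 2 the log2 change was -0.38. Cp was the only member with lower values in all aged libraries, as were 5.76% of all genes tested, and Trf the only one with higher values in all of them, as were 5.62%. Without young mouse 2 these were 2 members lower (Cp and Heph; 10.2% of genes) and 2 higher (Trf and Hamp; 10.1%). Heph had 3.84, 8.55 and 7.83 in aged mice, against 14.97, 8.28 and 12.5 in young mice. Aged mouse 2 lay just above young mouse 2, so the groups overlapped (log2 -0.86, SE 0.492, adjusted p = 0.84).

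The storage genes did not pass in choroid plexus. Fth1 had 1185, 1113 and 1146 in aged mice, against 1120.0, 1029.9 and 1134 in young mice (log2 0.07, SE 0.105). Ftl1 had 429, 336 and 439 in aged mice, against 314, 316 and 347 in young mice (log2 0.29, SE 0.142, adjusted p = 0.84, limma). In both, 1 aged library lay within the young range. Slc11a2 (19.2, 23.2 and 38.0 in aged mice, against 19.96, 20.7 and 22.6 in young mice) and Hmox1 (1.28, 15.9 and 11.2, against 11.98, 11.0 and 5.02) overlapped as well.

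Hamp was near the limit of detection in choroid plexus, with 1.28, 5.50 and 6.71 in aged mice, against 0.499, 1.38 and 0.627 in young mice. That is up to 6 reads in an aged library and at most 1 in a young one, and aged mouse 1 lay below young mouse 2. Steap3 had 2.56, 6.11 and 7.83 in aged mice, against 5.99, 11.0 and 6.27 in young mice, and the groups overlapped.

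**Figure D3:**
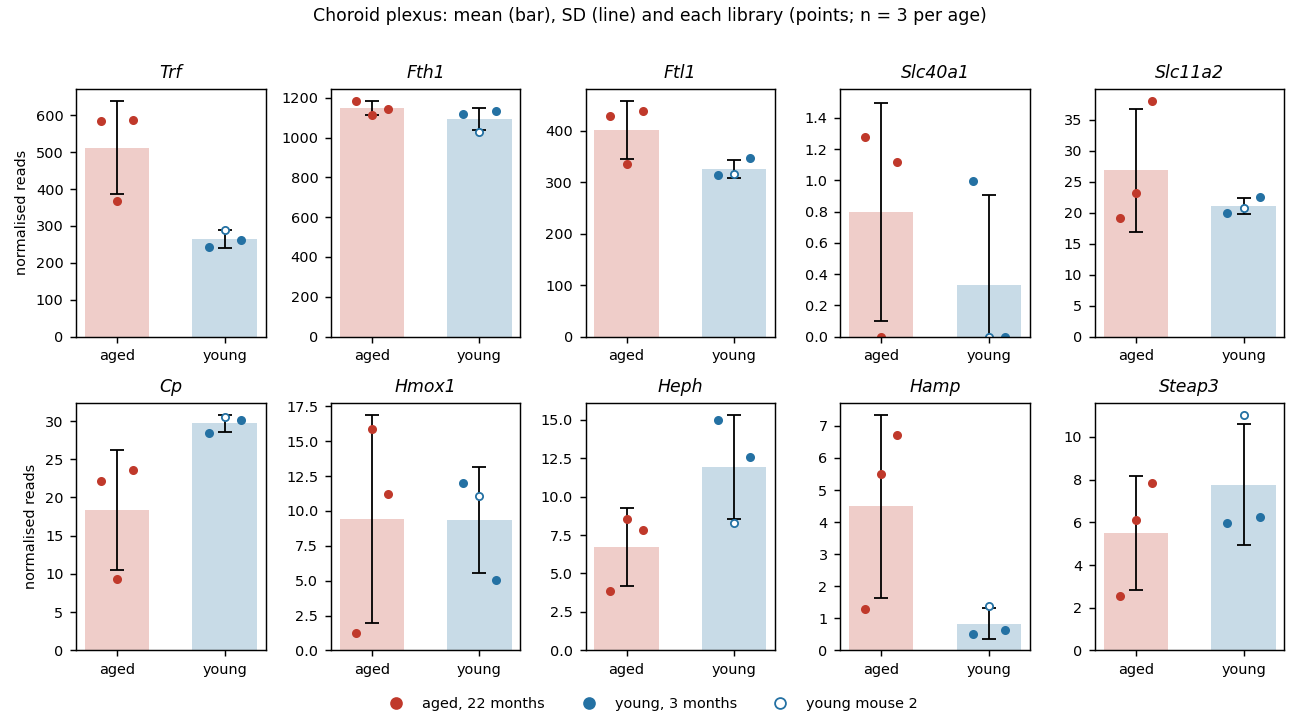
Normalised reads of each member in choroid plexus of aged and young mice; bars are means, lines SD (n = 3 each) and points single libraries, with young mouse 2 open. Trf is higher in all aged libraries and Cp lower in all of them, while Fth1 lies between 1029.9 and 1185 at both ages.

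Whether these changes differ from those of other organs was tested as the age change in choroid plexus against the mean age change of the other 10 tissues. No member passed by limma, and none had an unadjusted p under 0.05, while 1.56% of 20151 genes passed (187 higher and 127 lower, or 44 higher and 64 lower after quantile normalization). The difference was 0.81 for Trf (log2, SE 0.777, adjusted p = 0.892) and -0.96 for Cp (SE 0.53, adjusted p = 0.584; without young mouse 2, -1.06, adjusted p = 0.142). Without young mouse 1, Slc40a1 passed, on the few reads given above.

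In the 10 other tissues no member passed with all libraries (limma). The share of all genes that passed was 0.323% in thymus, 0.0758% in spleen, 0.0402% in colon and 0.0196% in cervical lymph nodes. It was 0.00689% in mesenteric lymph nodes, 0.00681% in liver, 0.00654% in lung and 0% in bone marrow, hippocampus and inguinal lymph nodes. At an unadjusted p under 0.05 stood Ftl1 and Hmox1 in cervical lymph nodes, Slc11a2 in colon and lung, Trf in hippocampus, Slc40a1 and Hmox1 in liver, Hmox1 and Heph in mesenteric lymph nodes, and Fth1 in thymus. Heph in mesenteric lymph nodes had 1.26, 0 and 4.70 in aged mice, against 3.75, 21.6 and 4.88 in young mice, where young mouse 2 was high. The 7 colon epithelium markers summed to 6755 in that library, against 22.6 to 42.7 in aged mesenteric nodes, and their part in it was not tested. Members with no overlap between ages were few and are given by tissue beside the share of all genes. In cervical lymph nodes 4 members were higher in all aged libraries (11.6% of genes) and 1 was lower (11.3%). In liver 3 were higher (10.4%), and in hippocampus 2 were higher (6.19%) and 1 lower (3.95%). In mesenteric lymph nodes 2 were higher (8.48%), in thymus 2 (10.6%), and 1 each in lung (10.2%), spleen (7.89%) and inguinal lymph nodes (6.28%). In bone marrow 2 members were lower (9.47%), and in colon 1 (6.71%).

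Without young mouse 2 more members had no overlap, as had more of all genes. In lung 4 were then higher (Trf, Ftl1, Slc11a2 and Cp; 15.6% of genes), in inguinal lymph nodes 3 (Ftl1, Cp and Hamp; 9.92%), in mesenteric lymph nodes 3 (Slc40a1, Cp and Hmox1; 12.6%) and in spleen 2 (Ftl1 and Cp; 13.6%). In liver 2 were then lower (Fth1 and Steap3; 17.4%). Where 1 young library remained, Cp was higher in bone marrow (25.2%), and Heph and Hamp were the 2 lower in cervical lymph nodes (26.6%). In lung the log2 change without young mouse 2 was 0.36 for Trf and -1.74 for Hamp, and none of these members passed (limma).

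**Figure D4:**
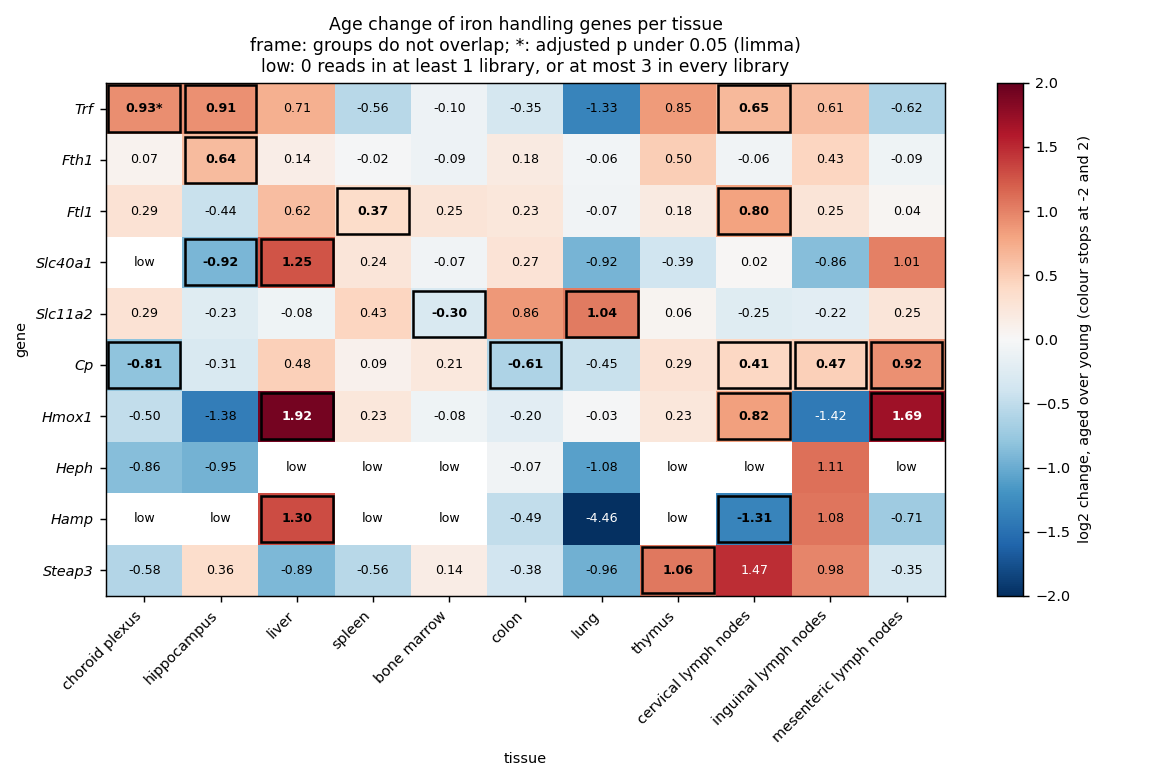
Log2 change, aged over young, of each member in each tissue with all libraries, from blue (lower in aged) to red (higher in aged); frames mark groups that do not overlap, outside the low cells, and the asterisk the call of Trf in choroid plexus. Cells marked low have 0 reads in at least 1 library or at most 3 in every library, and the lung values of Trf and Hamp (-1.33 and -4.46) include young mouse 2, without which they are 0.36 and -1.74.

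Trf was also higher in the aged hippocampus, where it had 197, 221 and 240.2 in aged mice, against 94.5, 119 and 141 in young mice. The groups did not overlap, and the log2 change was 0.91 (SE 0.35, adjusted p = 0.895, limma; without young mouse 2, 0.92, adjusted p = 0.369), beside a median of 0.16 over all genes. The 9 oligodendrocyte markers summed to 3076, 3475 and 3541 in the aged hippocampi and 2374, 1009.7 and 2661 in the young ones, without overlap. Among the young mice, mouse 2, whose hippocampus library held B cell markers, had the lowest oligodendrocyte marker sum, and mouse 1 had the lowest Trf. The part of oligodendrocytes in the change of Trf was not tested. Fth1 had 2081, 2240.4 and 2216 in aged hippocampi, against 1590.4, 917 and 1886 in young ones, and the groups did not overlap (log2 0.64, or 0.33 without young mouse 2). Slc40a1 had 1.75, 2.47 and 1.77 in aged hippocampi, against 3.10, 3.55 and 4.85 in young ones, a few reads in each library.

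The thymus showed Trf and Fth1 calls that rest on leaving out 1 library. Trf had 126, 123 and 139.9 in aged mice, against 34.7, 159.8 and 66.9 in young mice, and Fth1 761, 721 and 662 in aged mice, against 429.9, 706 and 425 in young mice. Young mouse 2 lay within or above the aged range for both. Without it the log2 change of Trf was 1.43 (SE 0.269, adjusted p = 0.023) and that of Fth1 0.74 (SE 0.161, adjusted p = 0.0459), by limma, where 1.04% of genes passed, and 5 members were higher in all aged libraries than in the remaining young ones, as were 16.1% of genes. With it they were 0.85 (adjusted p = 0.521) and 0.50 (adjusted p = 0.417), and without young mouse 1 that of Trf was 0.32. The 7 fat cell markers summed to 2914, 1645 and 3542 in aged thymi and 430.4, 2380.3 and 495 in young thymi, so young mouse 2 stood with the aged mice there too, and the part of fat in these values was not tested.

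In liver, the source of hepcidin, Hamp had 6048 and 6659.6 in aged mice, against 4076, 1573 and 2677 in young mice. Both aged livers lay above all young ones, and the change did not pass (log2 1.30, SE 0.712, adjusted p = 0.999; without young mouse 2, 0.94, SE 0.25, adjusted p = 0.766). Hmox1 had 62.8 and 23.7 in aged livers, against 8.92, 8.58 and 13.7 in young livers (log2 1.92, SE 0.532, adjusted p = 0.999, limma). Slc40a1 had 174 and 109.9 in aged livers, against 93.6, 29.0 and 71.3 in young livers (log2 1.25, SE 0.535, adjusted p = 0.999; without young mouse 2, 0.76). Aged mouse 1 was the high one for both, and without it the log2 change of Hmox1 was 1.22. Its liver also had the highest sum of the 10 macrophage markers, 3829, beside 1236 in the other aged liver and 786 to 1112 in young livers, and their part in the result was not tested.

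Trf and Ftl1 overlapped between ages in liver. Trf had 23885 and 19947 in aged livers, against 18118, 6246 and 21047 in young livers, and Ftl1 had 2935 and 3654, against 2674, 1180.4 and 3085. For both, the ages overlapped and young mouse 2 was lowest; its liver held 53890 of summed hepatocyte markers, against 108011 and 114404 in aged livers and 151825 and 164321 in the other young livers.

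In the lymph nodes the members without overlap between ages differed by site: Cp in all 3 sites, Hmox1 in mesenteric and cervical nodes, and Trf and Ftl1 in cervical nodes were higher in aged mice. Hmox1 had 21.7, 18.0 and 25.8 in aged mesenteric lymph nodes, against 6.55, 4.22 and 10.7 in young ones, with no overlap (log2 1.69, SE 0.427, adjusted p = 0.474, limma). The 10 macrophage markers summed to 3247 to 5421 in the aged nodes and 1004 to 3214 in the young ones. In cervical lymph nodes Hmox1 had 62.1, 50.3 and 55.1 in aged mice, against 22.4 and 44.4 in young mice, and Ftl1 1026, 901 and 826, against 424 and 652. Neither overlapped (log2 0.82 and 0.80, or 0.32 and 0.49 without young mouse 2), and there the macrophage markers summed to 3353 to 4206 in aged mice and 1878 to 2859 in young mice; in both nodes their part was not tested.

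Cp had 95.2, 71.8 and 69.2 in aged mesenteric nodes, against 65.2, 16.0 and 67.1 in young ones, and 67.9, 63.5 and 84.4 in aged inguinal nodes, against 50.6, 44.5 and 60.2 in young ones. In cervical nodes Cp had 63.5, 47.2 and 60.6 in aged mice, against 39.7 and 45.5 in young mice. No aged value fell within the young range, and the adjusted p-values (limma) were 0.679, 0.867 and 0.811. In mesenteric nodes the log2 change was 0.92, or 0.24 without young mouse 2. In inguinal nodes aged mouse 3, with the highest Cp, had a summed level of the 7 fat cell markers of 24029, against 127 to 2637 in young mice, and a summed level of the 6 B cell markers of 240.0, against 1320.4 to 1571 in young mice. The part of this in Cp was not tested. In colon the order was opposite, with 8.98, 6.42 and 5.63 in aged mice, against 10.4, 11.2 and 9.96 in young mice (log2 -0.61, adjusted p = 0.622).

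The remaining age differences without overlap were small or rested on few reads. Ftl1 in spleen had 1299.9, 1246 and 1194 in aged mice, against 1019, 845 and 1039.5 in young mice (log2 0.37, SE 0.204, adjusted p = 0.631, limma). Slc11a2 had 11.0, 16.6 and 14.2 in aged lungs, against 4.41, 6.89 and 9.69 in young lungs (log2 1.04, SE 0.423, adjusted p = 0.535; 0.55 with transcripts summed), and 15.4, 13.0 and 13.3 in aged bone marrow, against 17.9 and 16.2 in young bone marrow (log2 -0.30). The Slc11a2 isoform with the hairpin overlapped in lung, with 10.4, 9.36 and 10.7 in aged mice, against 9.69, 9.18 and 9.69 in young mice. Steap3 had 6.89, 6.57 and 7.996 in aged thymi, against 1.98, 5.33 and 3.75 in young thymi (log2 1.06, adjusted p = 0.475; 0.67 without young mouse 1). Trf in cervical lymph nodes (199, 213 and 255 in aged mice, against 101 and 196 in young mice) and Hamp there (4.44, 2.14 and 1.69, against 7.05 and 5.69) had log2 changes of 0.65 and -1.31, and that of Trf was 0.17 without young mouse 2. Heph had no overlap in bone marrow (lower) and thymus (higher), with at most 5 reads in any library.

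In the parabionts, no member passed in any of the 4 comparisons of choroid plexus (limma; 1, 2, 3 and 2 members had an unadjusted p under 0.05). Of 16493 genes, 0.0849% passed between old and young heterochronic mice, 0.0546% between old and young isochronic mice and 0% in the comparisons of heterochronic with isochronic mice of either age. In old heterochronic mice, both ferritin chains and Trf had values above all old isochronic mice. Ftl1 had 167 and 193 in old heterochronic mice, against 151, 135 and 132 in old isochronic mice (log2 0.37, SE 0.101, adjusted p = 0.388, limma). Fth1 had 367 and 416 in old heterochronic mice, against 338, 305 and 313 in old isochronic mice (log2 0.30, SE 0.0921, adjusted p = 0.414; 0.08 after quantile normalization). No old heterochronic library fell within the old isochronic range for either chain.

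Trf had 297 and 364 in old heterochronic mice, against 285, 272 and 284 in old isochronic mice (log2 0.23, SE 0.1, adjusted p = 0.529, limma). Its log2 change was 0.08 without old heterochronic mouse 34 and 0.38 without old heterochronic mouse 29, and 0.02 after quantile normalization. With Heph (46.1 and 57.7, against 40.4, 45.2 and 45.4), 4 of 9 members tested were higher in all old heterochronic libraries, as were 12.8% of genes. The log2 change of Heph was 0.24, or 0.08 without old heterochronic mouse 34 and 0.40 without old heterochronic mouse 29. The transcript Ttr, which marks choroid plexus epithelium, also had higher values there, 959.8 and 1254, against 914, 812 and 859.6. In reads Ttr was lower there, with 853 and 848, against 950, 952 and 946. A read was worth 1.13 and 1.48 in old heterochronic libraries, against 0.961, 0.852 and 0.909 in old isochronic ones. In this table no transcript exceeded 993 reads, and Ttr had 848 to 993 reads per library, whereas in choroid plexus of the tissue table it had 170131 to 222839. Values are therefore not compared between the tables, and the part of this ceiling in the values of Trf, Fth1 and Ftl1 was not tested.

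Between isochronic parabionts of different age, Trf values lay close together. Trf had 285, 272 and 284 in old isochronic mice, against 289, 281 and 248 in young isochronic mice, and the groups overlapped (log2 0.04, SE 0.0895). The experiments differ in kit and scale, and the difference between their changes was not tested. Cp had 40.4, 53.7 and 50.0 in old isochronic mice, against 54.7, 67.3 and 59.4 in young isochronic mice. All old values lay below all young ones, as for 4.69% of genes, and the change did not pass (log2 -0.34, SE 0.152, adjusted p = 1, limma; -0.22 without old isochronic mouse 19). Heph was the other of 2 members lower in all old libraries, with 40.4, 45.2 and 45.4 in old isochronic mice, against 56.7, 47.8 and 54.5 in young isochronic mice (log2 -0.28, SE 0.146).

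Young mice joined to an old mouse were compared with young mice joined to a young one. Cp had 38.3, 46.3 and 39.9 in young heterochronic mice, against 54.7, 67.3 and 59.4 in young isochronic mice, with no overlap (log2 -0.54, SE 0.152, adjusted p = 0.707, limma). By the transcript used, Cp was the only member lower in all young heterochronic libraries, as were 5.37% of genes. The other Cp transcript overlapped, with 22.0, 26.2 and 25.2 in young heterochronic mice, against 42.3, 23.5 and 36.3 in young isochronic mice. With transcripts summed the log2 change of Cp was -0.52. Hmox1 (34.8, 39.3 and 34.9 in young heterochronic mice, against 25.8, 28.2 and 32.2 in young isochronic mice) and Fth1 (391, 342 and 350.4, against 325, 341 and 292) were the 2 members higher in all of them, as were 4.41% of genes. The young isochronic mice serve as control in this comparison and in that of the isochronic pairs.

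Between heterochronic partners, Ftl1 was the only member without overlap. It had 167 and 193 in old heterochronic mice, against 166, 146 and 144 in young heterochronic mice (log2 0.25, SE 0.101, adjusted p = 0.509, limma; 0.14 without old heterochronic mouse 34), and 10.3% of genes were likewise higher in all old libraries. Slc11a2 (62.8 to 78.1 outside the young isochronic group and 52.8 to 74.3 within it) and Steap3 overlapped in all comparisons, and Slc40a1 had 0 to 2 reads per library.

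**Figure D5:**
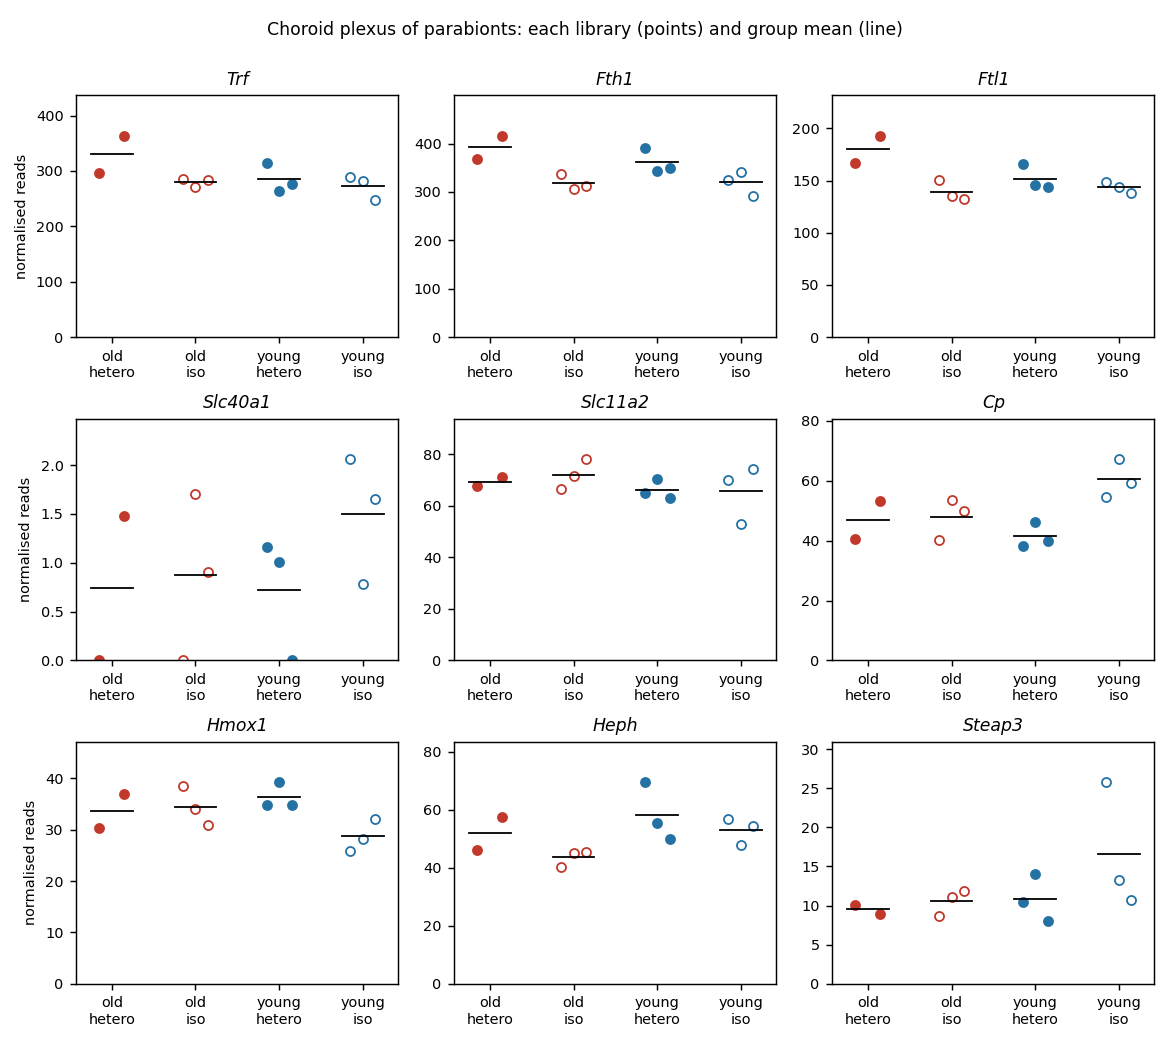
Normalised reads of 9 members in choroid plexus of old heterochronic (n = 2), old isochronic (n = 3), young heterochronic (n = 3) and young isochronic parabionts (n = 3); points are libraries and lines group means. The Cp transcript used is highest in young isochronic mice (54.7 to 67.3), and Ftl1 in old heterochronic mice (167 and 193).

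Of 74 other genes of iron and heme handling in 5 lists, none passed in choroid plexus with age (66 tested, 27 above and 39 below 0, 5 at an unadjusted p under 0.05 by limma) or in the parabionts (67 tested). The median log2 change of the lists with age in choroid plexus was -0.14, beside 0.01 over all genes. In thymus, where 0.323% of all genes passed, 3 of 64 tested were higher: Hp, the scavenger of free hemoglobin, with 123 to 145 in aged mice and 11.9 to 39.4 in young mice (log2 2.64, SE 0.349, adjusted p = 0.00837, limma), the hemopexin receptor Lrp1 (log2 1.81) and the hemoglobin scavenger receptor Cd163 (2.32). Fat cell markers in thymus overlapped between ages, as given above, with young mouse 2 within the aged range. The 6 markers of iron-recycling splenic macrophages summed to 103 to 136 in aged thymi and 66.6 to 87.3 in young thymi. That list holds Cd163 itself, and the part of these cells in the values was not tested.

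By level, choroid plexus had high values of some iron uptake genes and low values of others. Over all 5 lists, 31 of 71 genes tested were higher and 14 lower than in the mean of the other tissues (limma). Of all genes 51% passed in this contrast (26.1% higher and 24.9% lower). Of 13 uptake genes tested, 6 were higher and 5 lower, and only some of the genes that passed are named here. Steap1 and Steap2 had medians of 219 and 34.7 in choroid plexus, and no other tissue median exceeded 6.98 and 2.59. Slc22a17, described as a receptor of lipocalin 2, had 2838 there and 673 in hippocampus, the next. The transferrin receptor Tfrc had a median of 3.89 in choroid plexus and medians of 5.09 to 77.0 in the others. The importer Slc39a8 had a median of 0 in choroid plexus (highest library 0.998), against medians of 0.886 to 91.5 in the others. Of 18 genes of hepcidin regulation, 9 were higher and 3 lower, among them Bmp6, which induces hepcidin in liver, with a median of 151 in choroid plexus and 66.7 in lung, the next.

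Over the 11 tissue medians, the genes most like each member are given with Pearson's r, as a description of tissues that share libraries. Trf was nearest to Fabp1 (0.956), Apoc1 and Serpinf1, and Hamp to Fabp1 (0.982), Serpina1c and Serpina1d. Cd302 (0.963) and C2cd2 (0.945) were among the genes nearest to Cp. Ftl1 was nearest to the row Mir692-1 (0.996), Creg1 (0.966) and Trabd, and Fth1 to 2210403K04RIK (0.938), Bmp1 and MKIAA4159. Slc40a1 was nearest to DXBay18 and Gm14685 (0.895 each) and Lig3, Hmox1 to Acox3 (0.903), Dnase2a and Plekho2, and Heph to 1700029G01RIK (0.912), Mecom and Plekha3. Slc11a2 was nearest to Nfyc (0.911), B3gntl1 and Ezr, and Steap3 to Rnpep (0.949), Larp4b and Stk16. Among the members themselves, Trf and Hamp were most alike (0.908), followed by Cp and Hamp (0.88) and Trf and Cp (0.845). The median of Hamp was 5062 in liver and at most 7.32 elsewhere, so liver weighs heavily in its r.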

How the data were processed

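Sequencing libraries came from 11 tissues and from parabiont choroid plexus. The submitters' processing notes name TopHat and mm9; version, read counter and scaling method are not stated there. By their values, the deposited numbers are a signal: weighted reads for each RefSeq transcript over a factor of each library, uncorrected for length. Within 0.001 of a step, 78.2% to 85.6% of values above 0 were whole reads in tissues and 85.3% to 86.8% in parabionts, so whole counts were not recovered and no count model was used. The tissue table held 25865 transcripts and that of parabionts 21781, and per Symbol the one with the highest mean was kept. Each comparison was fitted over all genes with limma 3.58.1 in R 4.3.3 (mean-variance trend, robust) after a log2 transform with an added pseudocount. The pseudocount was the library median of the lowest value above 0 (0.0619 for the age comparison in choroid plexus, 0.0499 for parabionts, 0.0407 across tissues). A gene entered the test if the number of libraries over 4 pseudocounts reached the size of the smaller group. P-values were adjusted by Benjamini-Hochberg over all genes, with a threshold of 0.05. The 4 parabiont groups shared 1 fit; contrasts across tissues had the mouse as a fixed term. Fold changes are on the log2(value + pseudocount) scale; the pseudocounts lie under 1 read, so a library at 0 enlarges the changes of low genes. The fits were tested on simulated data.

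The iron handling genes and the lists were chosen with earlier results of these data known. Named genes were all 10 members, listed pathway genes past the threshold in choroid plexus or parabionts, up to 3 of them in each other tissue, and the 3 genes nearest to each member by tissue profile, of which 1 is not reported here. Alternatives were quantile normalization, no trend, a pseudocount of 1 read, no filter, the sum of transcripts, a replicate block and the omission of each library. Of the values in the tissue table, 1 column matched no listed sample and was not used.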

Additional observations from a re-analysis of the deposited data

Results flagged for a closer look

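Some members had age groups that did not overlap but pointed opposite ways in different tissues; the difference between those tissues was not tested. Cp was lower in aged choroid plexus (log2 -0.81, or -0.38 without aged mouse 2) and colon (-0.61) and higher in aged cervical (0.41), inguinal (0.47) and mesenteric (0.92) lymph nodes. Its change in choroid plexus against the mean of the other tissues was tested and did not pass (log2 -0.96, adjusted p = 0.584, limma). Slc40a1 was lower in aged hippocampus (-0.92) and higher in aged liver (1.25). Hamp was lower in aged cervical lymph nodes (-1.31) and higher in aged liver (1.30). Slc11a2 was lower in aged bone marrow (-0.30) and higher in aged lung (1.04).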

How the results depend on the processing

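The call of Trf in aged choroid plexus was the only member call within a tissue, and it was lost (0 members called) without the trend, with transcripts summed, with the replicate block (adjusted p = 0.0615) and without aged mouse 1, aged mouse 3 or young mouse 1; leaving out each library gave 0 to 1, and in every alternative its log2 change stayed between 0.81 and 1.15. Same-numbered aged and young mice did not deviate together (r from -0.141 to 0.0723 over 8 tissues), so the numbers do not pair them, and the block changed no other member count. In thymus leaving out each library gave 0 to 2 members, 2 without young mouse 2. For the age change in choroid plexus against other tissues it gave 0 to 1, 1 without young mouse 1. For the level in choroid plexus, Fth1 changed sign after quantile normalization (-0.019) and Steap3 without aged mouse 1 (leaving out each mouse gave -0.39 to 0.087). Trf passed there after quantile normalization (0.75) and Hamp with a pseudocount of 1 read (-1.53); the cause was not tested. The counts of all genes called per tissue ran from 0 to 48, from 53 to 180 without the trend, from 0 to 133 with a pseudocount of 1 read and from 0 to 1344 when a library was left out. In parabionts they ran from 0 to 14, from 14 to 50 without the trend and from 0 to 139 when a library was left out. In liver 1 gene was lower, against 3 higher and 22 lower after quantile normalization. No paired analysis was possible because parabiont numbers are not shared between groups. Where leaving out a library left 1 in a group, that one is assumed to vary like the others. Depth limits Slc40a1 and Hamp in choroid plexus and Heph in most tissues.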
